A study of Mus musculus with 6 samples.

Results

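The genes described here are those of prostaglandin synthesis, transport, breakdown and reception, read in the ductus arteriosus (DA) of the mouse embryo. The set holds 10 of the 23997 genes of the deposited table, chosen by symbol: the 4 prostaglandin E2 (PGE2) receptors *Ptger1*, *Ptger2*, *Ptger3* and *Ptger4*, the prostacyclin receptor *Ptgir*, the cyclooxygenases *Ptgs1* and *Ptgs2*, the PGE2 synthase *Ptges*, the prostaglandin dehydrogenase *Hpgd* and the prostaglandin transporter *Slco2a1*. Bulk RNA-Seq had been carried out on untreated DA removed at E17.5 from C57BL/6 embryos, with 3 libraries labelled wild type (WT) and 3 labelled Prdm6f/f; SM22-Cre, called KO here. The WT embryos were littermates, and whether they carried SM22-Cre was not stated. SM22 is the smooth muscle gene *Tagln*, and its promoter drives Cre in smooth muscle cells (SMCs), so that only part of the cells of the vessel are targeted for loss of the histone methyltransferase Prdm6. Titles number the libraries 0, 1 and 2 within a group.

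The DA joins the pulmonary artery to the aorta and carries blood past the fetal lungs. Before birth it is held open largely by PGE2, which binds the EP4 receptor (encoded by *Ptger4*) on ductal SMCs, raises cyclic AMP and relaxes the muscle, and around birth the fall in PGE2 and the rise in oxygen let the vessel close. Cyclooxygenases turn arachidonic acid into prostaglandin H2, and the terminal synthases convert it to PGE2, prostacyclin, prostaglandin D2 or thromboxane. The transporter Slco2a1 carries prostaglandins into cells and the dehydrogenase Hpgd inactivates them there. The receptors EP2, EP4 and the prostacyclin receptor IP act through the stimulatory G protein and raise cyclic AMP, whereas EP3 mostly acts through the inhibitory G protein and lowers it, and EP1 raises calcium.

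Values are FPKM, which divide the fragments of a gene by its length and by the size of the library, so that levels can be set side by side between genes as well as between libraries. The total depth of a library is unknown from such values. A rough estimate from the steps between low FPKM put relative depth between 0.927 and 1.19 times that of WT library 1. It took the most common ratio to WT library 1 among 89 to 258 genes per library. Only a limited range of ratios was searched, so the estimate does not show that depths were alike. The upper quartiles of the libraries were 10.4 to 10.8 FPKM. The targeted gene *Prdm6* did not separate the groups, with 41.7, 48.4 and 19.8 FPKM in WT and 48.6, 27.1 and 15.4 FPKM in KO, so the deposited labels alone define the groups. The deposited gene-level value does not show whether the floxed part was read. By quantitative PCR, the paper reports lower *Prdm6* in the DA and aorta of mice with this KO genotype. SMC markers were present in all 6 libraries, and their summed FPKM was lower in every KO library than in every WT library. Heart muscle markers summed to 1649 FPKM in WT library 1 and 1923 FPKM in KO library 2 and to between 70.3 and 639 FPKM in the other 4. KO library 0 held both the X-inactivation transcript *Xist* (81.0 FPKM) and the Y-linked *Ddx3y* (26.4 FPKM), and no other library had more than 0.383 FPKM of one beside more than 1 FPKM of the other. A value of exactly 0 can be a failed estimate. WT library 2 listed 82 genes at 0 that had at least 5 FPKM in all other libraries, against 0 to 3 such genes in each of the others, and it listed 4 of the 10 prostaglandin genes at 0. WT library 0 listed 2 of them at 0, KO library 1 listed 2, KO libraries 0 and 2 listed 1 each, and WT library 1 none.

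Of the 10 genes, 6 had a mean of at least 1 FPKM over the 6 libraries and entered the limma fit across 12955 genes. The EP4 receptor gene was the one gene of the 6 that was lower in KO, and its groups did not overlap. The EP3 receptor gene was higher in all KO libraries than in any WT library, but rested on WT values listed at 0. The other 4 tested genes had a higher mean log2 value in KO, with overlapping groups. At an adjusted p under 0.05, 0 of the 6 were called, with 1 lower (*Ptger4*) and 1 higher (*Ptger3*) at an unadjusted limma p under 0.05. Over all genes tested, limma called 1 gene (0.00772%) at the adjusted threshold, 4.97% were lower and 3.31% higher at an unadjusted p under 0.05, and the groups did not overlap for 7.84% with KO below WT and for 8.21% with KO above WT. The median log2 fold change of the 6 genes was 0.56, against 0.072 over all genes tested. The methods speak of several mice in each group, but the sample labels do not tie a library to an embryo, so the p-values measure the spread between these libraries. With 3 libraries against 3, the smallest p that an exact two-sided permutation test can give is 0.1.

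**Figure D1:**
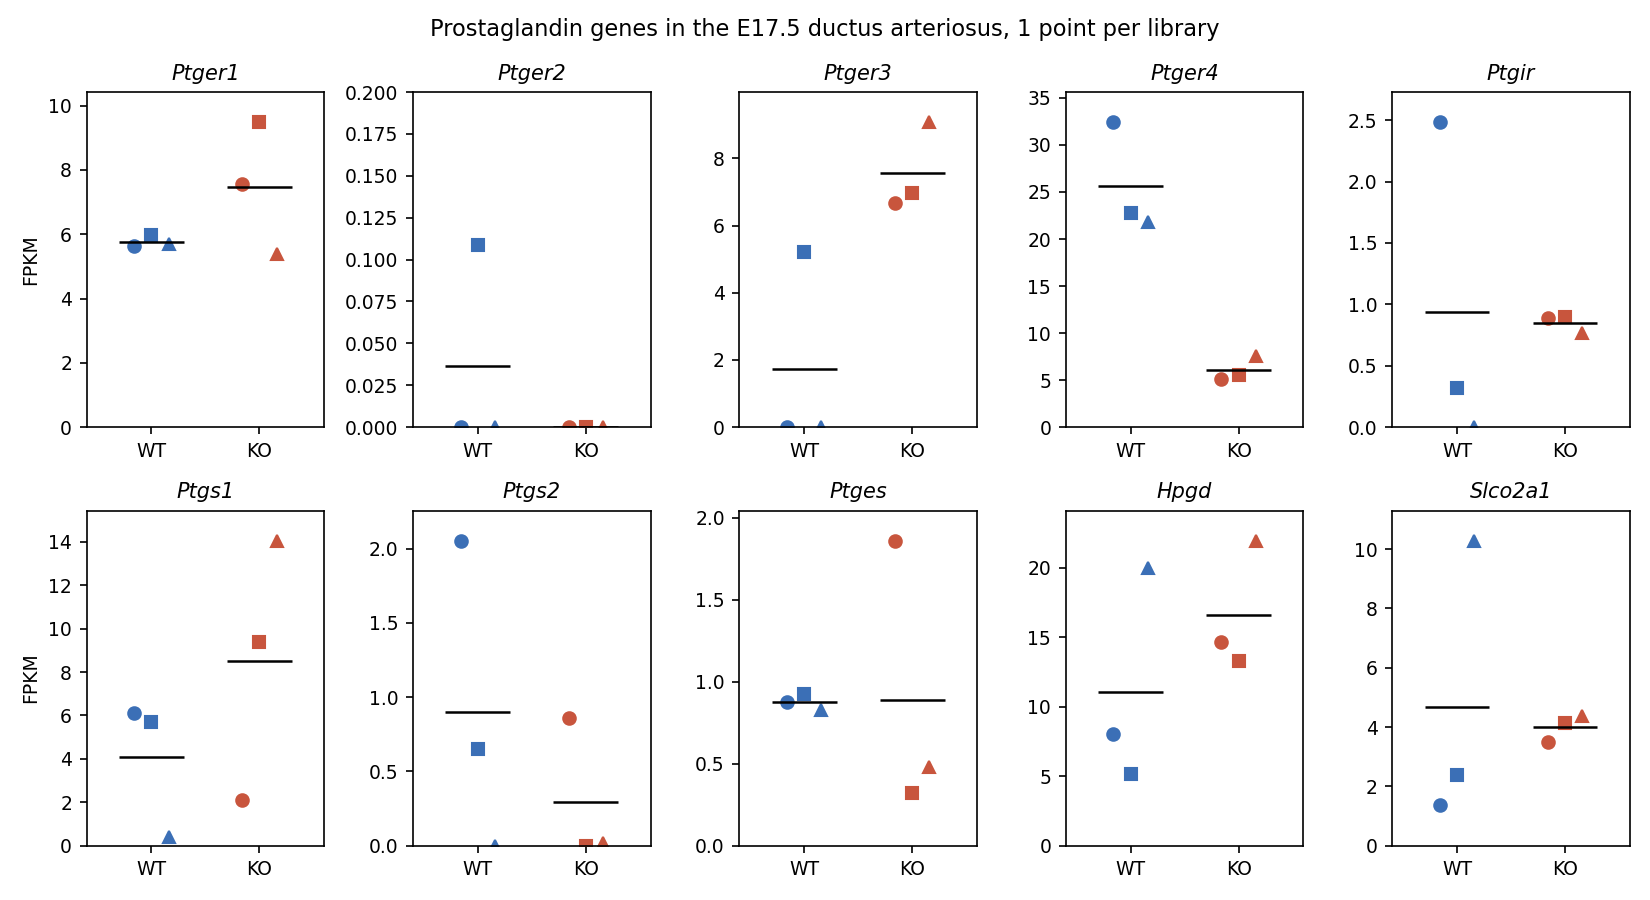
FPKM (y axis, from 0, with a scale of its own in each panel) of the 10 prostaglandin genes in WT and KO libraries. Each point is a library (circle, 0; square, 1; triangle, 2) and each bar is the mean of 3 libraries. *Ptger4* and *Ptger3* are the panels in which the groups do not overlap, and *Ptger3* has 2 WT points at 0.

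*Ptger4*, on chromosome 15 of GRCm38 (5206661 to 5244187, minus strand), encodes EP4, the receptor through which PGE2 relaxes the fetal DA. It was the most abundant of the 5 receptor transcripts in every WT library. Its level was 32.4, 22.8 and 21.8 FPKM in WT libraries 0, 1 and 2 and 5.10, 5.51 and 7.61 FPKM in KO libraries 0, 1 and 2. All 3 KO libraries were low, and the lowest WT value was 2.86 times the highest KO value. The means were 25.6 ± 5.86 FPKM (SD, n = 3) in WT and 6.07 ± 1.34 FPKM (SD, n = 3) in KO, a KO mean 76.3% below that of WT. The log2 fold change was -2.06 with an SE of 0.29 (95% interval -2.73 to -1.39), the unadjusted limma p was 0.00012 and the adjusted p over all genes was 0.172. The exact permutation p was 0.1, the smallest possible. Of the 12955 genes tested, *Ptger4* had the 9th smallest p, and 184 genes had a more negative log2 fold change.

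Because *Ptger4* carries the main difference among the receptors, the 250 bases before its RefSeq start are shown, with those of *Ptger3*, the receptor whose groups separated in the other direction. Both are from GRCm38.p6 and are written 5′ to 3′ on the strand of the gene. The *Ptger4* window is chr15:5244188-5244437, minus strand, and the *Ptger3* window is chr3:157566626-157566875, plus strand. No annotated exon of any gene lies in either. Capitals mark matches to the GC box (GGGCGG, or CCGCCC for a match on the opposite strand).
Ptger4: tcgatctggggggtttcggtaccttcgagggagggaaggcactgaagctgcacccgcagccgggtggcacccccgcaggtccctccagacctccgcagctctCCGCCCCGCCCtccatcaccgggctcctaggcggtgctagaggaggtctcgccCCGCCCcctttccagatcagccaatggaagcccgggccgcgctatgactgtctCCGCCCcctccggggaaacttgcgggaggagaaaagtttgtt
Ptger3: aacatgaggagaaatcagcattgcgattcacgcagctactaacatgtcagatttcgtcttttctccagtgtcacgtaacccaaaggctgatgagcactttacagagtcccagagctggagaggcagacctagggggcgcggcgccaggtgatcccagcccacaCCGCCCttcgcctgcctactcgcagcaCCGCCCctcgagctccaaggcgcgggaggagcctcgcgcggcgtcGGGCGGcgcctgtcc

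The *Ptger4* window had a GC content of 66.8% and the *Ptger3* window 62%, against a median of 52.4% over the 32851 windows of 27025 genes. *Ptger4* held 4 GC boxes, all on the opposite strand, beginning at positions -42, -95, -143 and -148 from the start, and the matches farthest from it share a base. *Ptger3* held 3, beginning at positions -15, -60 and -87. Windows were found for 9 of the 10 genes (not *Ptger1*). Both strands were also searched for the CArG box (the serum response element of smooth muscle genes), the cyclic AMP response element (TGACGTCA), its core (TGACG, which the full element contains), the TATA box (TATAAA) and the NF-kappaB site. GC boxes were present in 7 of the 9 windows and in 32.7% of all windows. None of the 9 held a CArG box (1.47% of all windows), the full element (1.55%) or its core (17.8%). The TATA box was found in that of *Slco2a1* (12.4% of all windows), which overlaps annotated exons of the gene, and an NF-kappaB site in that of *Ptgs2* (7.91%), which overlaps an exon of *Ptgs2os*. These matches describe letters, and binding at these windows was not measured here.

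*Ptger4* is expressed in ductal SMCs, and the SMC markers were lower in the same libraries. The summed FPKM of the 10 SMC markers was 5766, 2875 and 2491 in WT and 2412, 1823 and 928 in KO, with KO below WT in all libraries. Of the 10 markers, 9 had a lower mean in KO on both scales, and *Synm* had nearly equal means (log2 fold change -0.014). Of the 10, 5 had an unadjusted limma p under 0.05 and 0 an adjusted p under 0.05. Over all genes tested, 4.97% were lower in KO at that unadjusted p. Per 1000 FPKM of SMC markers, *Ptger4* stood at 5.62, 7.92 and 8.75 in WT and at 2.12, 3.02 and 8.20 in KO. KO library 2, with the lowest marker sum, lay inside the WT range on this scale, and KO libraries 0 and 1 lay below it. Per 1000 FPKM of the myosin heavy chain gene *Myh11*, *Ptger4* was 43.3, 80.2 and 70.8 in WT and 34.6, 35.2 and 116 in KO, and per 1000 FPKM of the smooth muscle actin gene *Acta2* it was 14.3, 20.3 and 25.5 in WT and 4.40, 6.81 and 19.2 in KO. The groups overlapped on both scales. In bulk samples, fewer cells of a type and less RNA per cell cannot be told apart.

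Other cell types that a dissected DA holds were read the same way. Per 1000 FPKM of 10 endothelial markers, *Ptger4* was 71.0, 59.7 and 40.0 in WT and 10.7, 7.69 and 11.4 in KO, without overlap. The endothelial sum itself was 456, 381 and 544 FPKM in WT and 478, 716 and 665 FPKM in KO, with overlap. Schwann cell markers summed to 19.2, 24.8 and 44.3 FPKM in WT and 53.3, 115 and 196 FPKM in KO, with KO above WT. The sums of heart muscle, leukocyte, platelet, mast cell, epithelial, erythroid and fibroblast markers overlapped between the groups. Without the 2 libraries highest in heart muscle markers, the log2 fold change of *Ptger4* was -2.30. The part of these cell types in the *Ptger4* difference was not tested.

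**Figure D2:**
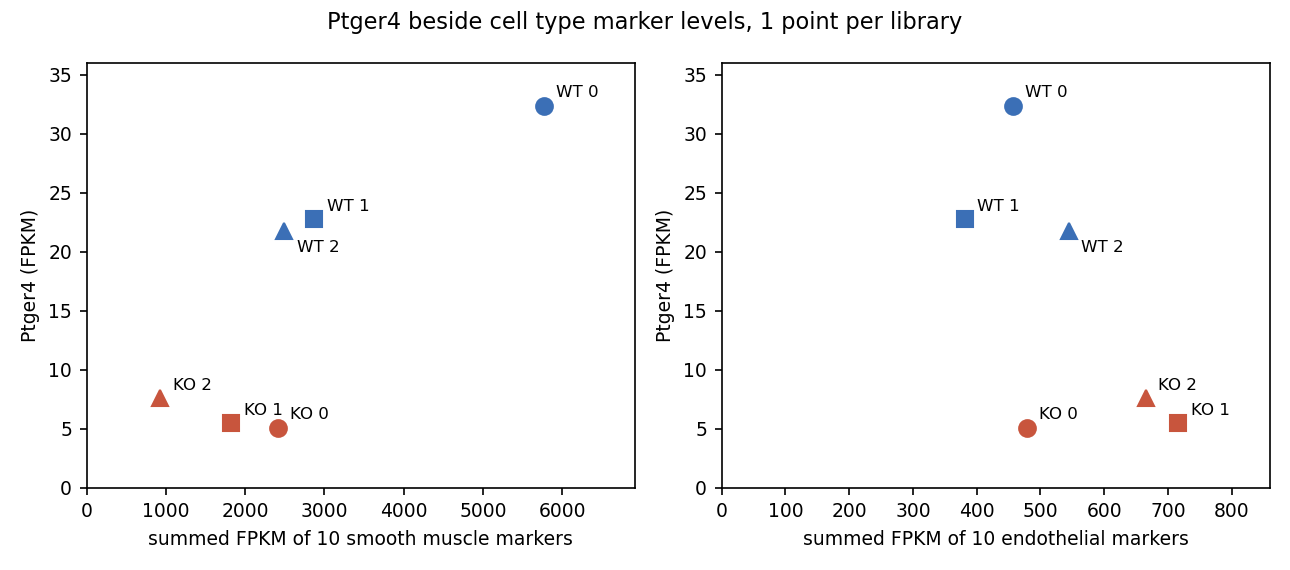
*Ptger4* (FPKM, y axis) against the summed FPKM of 10 SMC markers (left x axis) and of 10 endothelial markers (right x axis), 1 point per library, with WT in blue and KO in red and axes from 0. KO libraries 0, 1 and 2 lie at or below 7.61 FPKM of *Ptger4*. KO library 0 and WT library 2 have nearly the same SMC marker sum (2412 and 2491 FPKM), with 5.10 and 21.8 FPKM of *Ptger4*. Their single markers differ, with more *Acta2* (1161 against 855 FPKM) and less *Myh11* (148 against 308 FPKM) in KO library 0. A like sum therefore does not show a like SMC content.

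Across the WT libraries the SMC marker sum and *Ptger4* had the same order, highest in library 0 and lowest in library 2. Across the KO libraries the orders were opposite, with the SMC marker sum lowest and *Ptger4* highest in library 2. By the mean absolute difference of centred log2 values over the 6 libraries, the genes most like *Ptger4* were *Stac* (0.105), *Nell1* (0.180), *Tgfbi* (0.189), *Mrps21* (0.252) and *Igfbp2* (0.257). *Stac* had 16.9, 10.5 and 9.53 FPKM in WT and 2.59, 2.16 and 3.54 FPKM in KO. All 5 had KO below WT in all libraries, as a gene close to *Ptger4* must, and the libraries are shared by all these genes. The ranks of the SMC genes in this order were 95 for *Actg2*, 272 for *Myh11*, 282 for *Cnn1*, 779 for *Tagln* and 1392 for *Acta2*. On the genome, 1015 of the 6648 exonic bases of *Ptger4* (15.3%) lie opposite *Gm15937* and 82 (1.23%) opposite *Ttc33*, and whether strand was used in the mapping was not stated. *Ttc33* had 14.2, 7.91 and 17.4 FPKM in WT and 9.44, 6.92 and 9.97 FPKM in KO.

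*Ptger3* (chromosome 3, 157566892 to 157645888, plus strand) encodes EP3, which lowers cyclic AMP. It was listed at 0, 5.20 and 0 FPKM in WT libraries 0, 1 and 2 and at 6.67, 6.96 and 9.07 FPKM in KO libraries 0, 1 and 2. All 3 KO libraries were above WT library 1, the highest of WT. The fitted log2 fold change was 4.34 with an SE of 1.55 (95% interval 0.75 to 7.93), the unadjusted limma p was 0.0240, the adjusted p was 0.564 and the exact permutation p was 0.1. Its size is set by the treatment of 0, since it was 2.21 with a pseudocount of 1 and 6.54 with a pseudocount of 0.01. With values at 0 left out, the log2 fold change was 0.52 (SE 0.51, unadjusted limma p 0.346) and rested on 1 WT library. In the whole table, 5 genes were at 0 in WT libraries 0 and 2 and at 5 FPKM or more in the other 4.

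*Ptger1* (chromosome 8, 83666678 to 83672753, plus strand) encodes EP1, which raises calcium. It had 5.64, 5.96 and 5.70 FPKM in WT and 7.56, 9.48 and 5.38 FPKM in KO. KO libraries 0 and 1 were above all WT libraries, and KO library 2 was below all of them. The means were 5.77 ± 0.174 FPKM (SD, n = 3) in WT and 7.47 ± 2.05 FPKM (SD, n = 3) in KO, with a log2 fold change of 0.33 (SE 0.35, 95% interval -0.49 to 1.15, adjusted limma p 0.775).

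The remaining receptors of the set were at or near the limit of the table. *Ptger2* (chromosome 14, 44988195 to 45003820, plus strand), which encodes EP2, was listed at 0.109 FPKM in WT library 1 and at 0 in the other 5. *Ptgir* (chromosome 7, 16906490 to 16910905, plus strand), the receptor for prostacyclin, was listed at 2.48, 0.321 and 0 FPKM in WT and at 0.888, 0.894 and 0.770 FPKM in KO. The KO values of *Ptgir* lay close together inside the wide WT range, and its exact permutation p was 0.7. Both fell under the filter on low values.

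Within each library the scaling between libraries cancels, so the share of each receptor in the sum of the 5 does not rest on it. The 5 receptors summed to 40.5, 34.3 and 27.5 FPKM in WT and 20.2, 22.8 and 22.8 FPKM in KO. *Ptger4* made up 80.0%, 66.2% and 79.3% of the sum in WT and 25.2%, 24.1% and 33.3% in KO, without overlap. *Ptger1* made up 13.9% to 20.7% in WT and 23.6% to 41.5% in KO, and *Ptger3* made up 0 to 15.1% in WT and 30.5% to 39.7% in KO. With *Ptger3* left out of the sum, the *Ptger4* share was 79.1% ± 0.960 (SD, n = 3) in WT and 42.6% ± 11.1 (SD, n = 3) in KO, and the groups still did not overlap. The receptors that raise cyclic AMP (*Ptger2*, *Ptger4* and *Ptgir*) summed to 34.9, 23.2 and 21.8 FPKM in WT and 5.99, 6.40 and 8.38 FPKM in KO. *Ptger1* and *Ptger3* together had 5.64, 11.2 and 5.70 FPKM in WT and 14.2, 16.4 and 14.4 FPKM in KO. The ratio of the former sum to the latter was 6.19, 2.08 and 3.82 in WT and 0.421, 0.389 and 0.580 in KO. Every WT library thus held more transcript of the receptors coupled to the stimulatory G protein and every KO library held more of *Ptger1* and *Ptger3*, a description with no test, in which the *Ptger3* values at 0 take part.

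**Figure D3:**
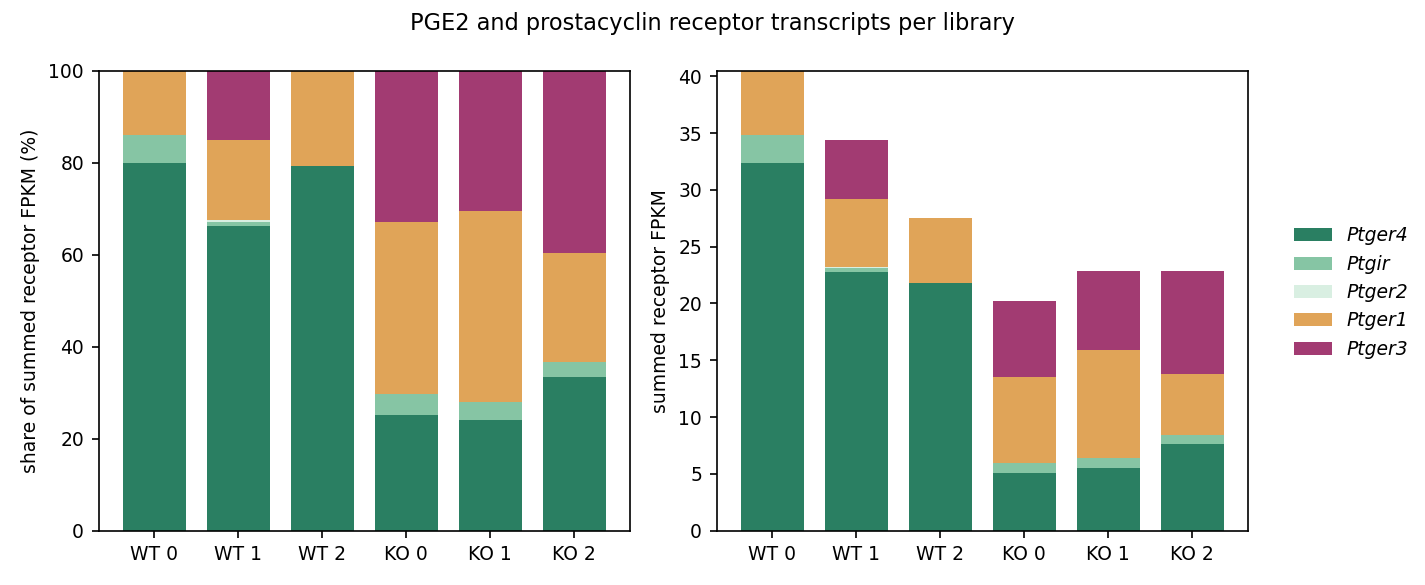
Left, the share (%) of each PGE2 and prostacyclin receptor gene in their summed FPKM, and right, the FPKM themselves, stacked in each of the 6 libraries, from 0. Greens are the receptors that raise cyclic AMP. *Ptger4* fills at least 66.2% of the bar in each WT library and at most 33.3% in each KO library.

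Among the enzymes, the constitutive cyclooxygenase *Ptgs1* (chromosome 2, 36230426 to 36252272, plus strand) had 6.09, 5.71 and 0.406 FPKM in WT and 2.08, 9.37 and 14.0 FPKM in KO. The lowest value was WT library 2 and the highest were KO libraries 1 and 2, with KO library 0 inside the WT range. The means were 4.07 ± 3.18 FPKM (SD, n = 3) in WT and 8.50 ± 6.03 FPKM (SD, n = 3) in KO. The log2 fold change was 1.33 (SE 1.12, adjusted limma p 0.728), and it ranged from 0.15 to 2.14 when each library was left out in turn. Platelets are rich in this enzyme. The 8 platelet and megakaryocyte markers summed to 11.2, 39.4 and 34.3 FPKM in WT and 22.1, 55.6 and 64.2 FPKM in KO, with the same 2 KO libraries highest, and their part in *Ptgs1* was not tested.

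The inducible cyclooxygenase *Ptgs2* (chromosome 1, 150100031 to 150108227, plus strand) was listed at 2.05, 0.650 and 0 FPKM in WT and at 0.861, 0 and 0.0192 FPKM in KO. It was low throughout, with overlapping groups, and fell under the filter. *Ptgs1* made up 74.8%, 89.8% and 100% of the cyclooxygenase FPKM in WT and 70.8%, 100% and 99.9% in KO, so it was the larger of the 2 in every library. *Ptges* (chromosome 2, 30889471 to 30929863, minus strand), the inducible PGE2 synthase, had 0.874, 0.923 and 0.825 FPKM in WT and 1.86, 0.322 and 0.482 FPKM in KO. The WT libraries were tightly grouped and the KO libraries lay on both sides of them, with means of 0.874 ± 0.0490 FPKM (SD, n = 3) and 0.887 ± 0.844 FPKM (SD, n = 3). It also fell under the filter. The cytosolic PGE2 synthase *Ptges3*, a heat shock protein co-chaperone, stood at 91.1 to 125 FPKM in WT and 106 to 124 FPKM in KO, and the membrane synthase *Ptges2* at 2.90 to 4.23 FPKM in WT and 2.33 to 5.78 FPKM in KO.

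*Hpgd* (chromosome 8, 56294585 to 56321043, plus strand), which oxidises PGE2 to an inactive product, had 8.04, 5.19 and 19.95 FPKM in WT and 14.7, 13.3 and 21.9 FPKM in KO. WT library 2 stood above KO libraries 0 and 1, and the other WT libraries stood below all of KO. The means were 11.1 ± 7.83 FPKM (SD, n = 3) in WT and 16.6 ± 4.64 FPKM (SD, n = 3) in KO. The log2 fold change was 0.78 (SE 0.49, adjusted limma p 0.680). It was 1.32 without WT library 2 (unadjusted limma p 0.00589, adjusted limma p 0.475), where the groups did not overlap. Without the 2 libraries highest in heart muscle markers, the log2 fold change was 0.14. The log2 ratio of *Ptges* to *Hpgd*, the enzymes at the 2 ends of the life of PGE2, was -3.06, -2.37 and -4.44 in WT and -2.92, -4.99 and -5.24 in KO, negative in every library and overlapping between the groups.

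*Slco2a1* (chromosome 9, 102988712 to 103096002, plus strand), the transporter that brings PGE2 into the cell for breakdown, had 1.38, 2.39 and 10.3 FPKM in WT and 3.48, 4.12 and 4.38 FPKM in KO. WT library 2 was the highest of all 6 and WT libraries 0 and 1 the lowest, with KO between them. The means were 4.68 ± 4.87 FPKM (SD, n = 3) in WT and 3.995 ± 0.462 FPKM (SD, n = 3) in KO. Its mean FPKM was therefore lower in KO, whereas its mean log2 value was higher, with a log2 fold change of 0.27 (SE 0.75, adjusted limma p 0.916). WT library 2 decides this value, which was 1.09 without that library and -0.32 without WT library 0.

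**Figure D4:**
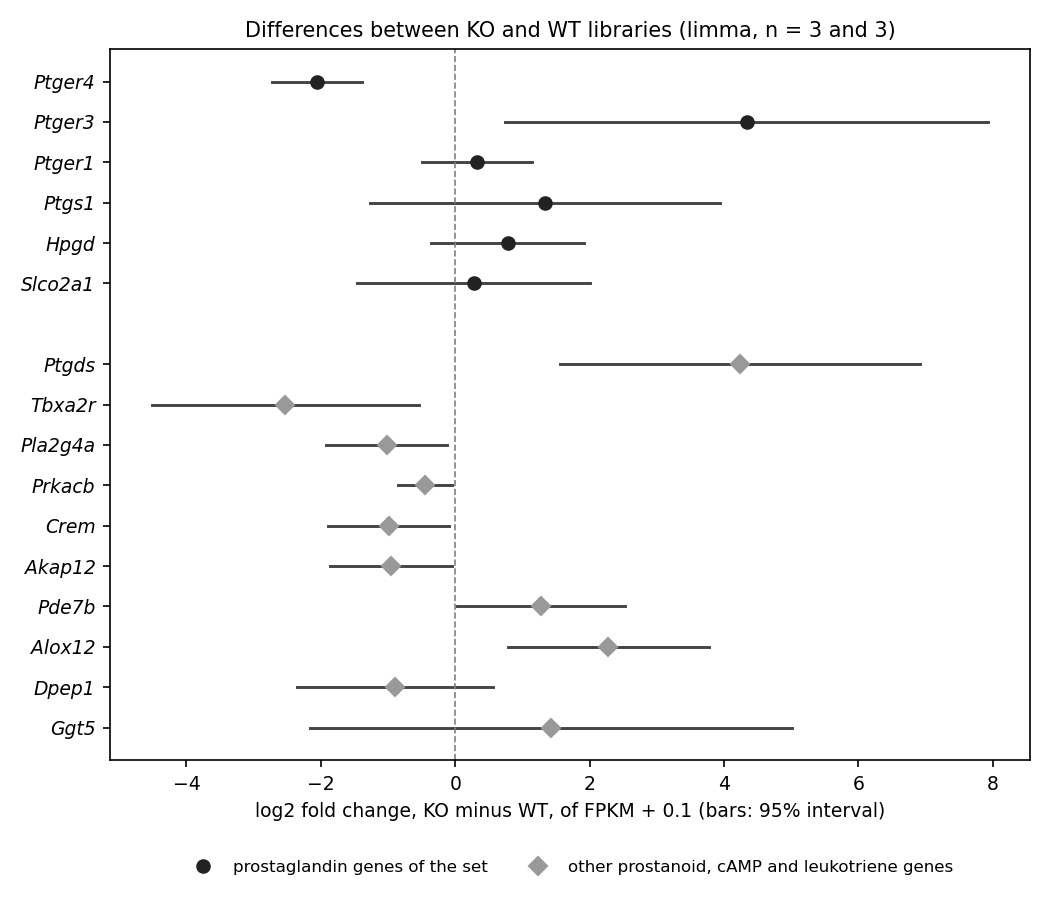
Log2 fold change, KO minus WT, of FPKM + 0.1 (x axis) for the 6 tested prostaglandin genes (black circles) and 10 named genes of the related lists (grey diamonds), with 95% intervals from limma. The interval of *Ptger4* lies between -2.73 and -1.39, that of *Ptger3* is the wide one from 0.75 to 7.93, and those of *Ptger1*, *Ptgs1*, *Hpgd* and *Slco2a1* include 0.

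The rest of the prostanoid pathway was read from a list of 29 other genes, of which 20 passed the filter. Of these, 8 were lower and 12 higher in KO, 0 passed an adjusted p of 0.05, and 2 lower and 1 higher had an unadjusted limma p under 0.05. Over all genes tested, the shares at that unadjusted p were 4.97% lower and 3.31% higher. The median log2 fold change of the 20 genes was 0.070, close to the 0.072 of all genes. *Pla2g4a*, the cytosolic phospholipase A2 that releases arachidonic acid, had 20.04, 12.2 and 15.3 FPKM in WT and 4.91, 12.04 and 7.43 FPKM in KO (log2 fold change -1.02, SE 0.39, adjusted limma p 0.586). KO library 1 was just below WT library 1, and the groups did not overlap. *Tbxa2r*, the thromboxane receptor, through which vascular smooth muscle contracts, had 9.39, 4.71 and 3.55 FPKM in WT and 0.372, 0.565 and 2.66 FPKM in KO (log2 fold change -2.53, SE 0.85, adjusted limma p 0.545), and its log2 fold change was -1.70 with a pseudocount of 1. Like *Ptger4* it was lower in all KO libraries, and it held rank 269 among the genes most like *Ptger4*. *Ptgds*, a prostaglandin D2 synthase, was listed at 0.114, 1.46 and 0 FPKM in WT and at 5.28, 6.54 and 6.23 FPKM in KO (log2 fold change 4.24, SE 1.15, adjusted limma p 0.500), so that all KO libraries were above WT. Its log2 fold change was 2.32 with a pseudocount of 1, 5.62 with a pseudocount of 0.01 and 3.40 to 5.38 when each library was left out. The Schwann cell marker sum given above was also higher in all KO libraries. Of its 10 markers, 5 were separate in that direction (8.21% of all genes tested), and *S100b* was lower in mean in KO. The part of Schwann cells in *Ptgds* was not tested.

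Of the 20 genes, 4 had KO below WT in all libraries (7.84% of all genes tested) and 1 had KO above WT (8.21%). The 2 not named so far, chosen here after their values were seen, were *Ptgis* and *Ptgr2*. *Ptgis*, the prostacyclin synthase, was by level the leading terminal synthase after *Ptges3*, with 68.1, 57.8 and 83.7 FPKM in WT and 51.6, 56.3 and 23.9 FPKM in KO (log2 fold change -0.75, unadjusted limma p 0.0587). KO library 1 was just below WT library 1. *Ptgr2*, a prostaglandin reductase, had a log2 fold change of -0.49 (unadjusted limma p 0.202). The prostaglandin F receptor *Ptgfr* was listed between 0.0155 and 1.15 FPKM in all 6 libraries, and the prostaglandin D2 receptors *Ptgdr* and *Ptgdr2* between 0 and 0.538 FPKM.

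Downstream of the receptors, 36 of 38 listed genes of cyclic AMP signalling were tested, with 16 lower and 20 higher in KO and a median log2 fold change of 0.12. None passed an adjusted limma p of 0.05, and 3 lower and 1 higher had an unadjusted limma p under 0.05. Over all genes tested, 4.97% were lower and 3.31% higher at that unadjusted p. *Gnas*, which encodes the stimulatory G protein subunit used by EP4, had 524, 696 and 768 FPKM in WT and 575, 668 and 630 FPKM in KO, with overlap. *Prkacb*, a catalytic subunit of protein kinase A, had 41.9, 40.3 and 37.1 FPKM in WT and 31.8, 29.9 and 26.0 FPKM in KO (log2 fold change -0.45, SE 0.17, adjusted limma p 0.588), a small difference with little spread in either group. *Crem*, a cyclic AMP responsive transcription factor gene, had 10.1, 9.65 and 16.3 FPKM in WT and 8.65, 4.17 and 5.44 FPKM in KO (log2 fold change -0.99, SE 0.39, adjusted limma p 0.591). *Akap12*, an anchoring protein of protein kinase A, had 218, 274 and 405 FPKM in WT and 82.1, 192 and 210 FPKM in KO (log2 fold change -0.95, SE 0.39, adjusted limma p 0.591). *Pde7b*, a phosphodiesterase that breaks down cyclic AMP, had 1.44, 3.38 and 2.71 FPKM in WT and 6.09, 3.96 and 8.47 FPKM in KO (log2 fold change 1.28, SE 0.54, adjusted limma p 0.5999). The groups did not overlap for any of these 4. Of the 36 genes, 4 had KO below WT in all libraries (7.84% of all genes tested) and 1 had KO above WT (8.21%). The fourth gene with KO below WT, named after its values were seen, was the phosphodiesterase gene *Pde4d* (log2 fold change -0.82, unadjusted limma p 0.0627).

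The leukotriene branch uses the same arachidonic acid, and few of its genes had appreciable FPKM. Its leading transcript was *Lta4h*, the leukotriene A4 hydrolase, at 38.4 to 56.1 FPKM in WT and 38.6 to 69.7 FPKM in KO. The 16 listed genes also included lipoxygenases outside the leukotriene branch itself, *Alox12* and *Alox8* among them. Of the 16, 6 passed the filter, with 1 lower and 5 higher in KO and a median log2 fold change of 0.70. Another 4 were listed at 0 in all libraries, among them the leukotriene C4 synthase gene *Ltc4s*. None passed an adjusted limma p of 0.05, and 0 lower and 1 higher had an unadjusted limma p under 0.05. Over all genes tested, 4.97% were lower and 3.31% higher at that unadjusted p. Of the 6, 0 had KO below WT in all libraries (7.84% of all genes tested) and 1 had KO above WT (8.21%). *Alox12*, the platelet 12-lipoxygenase, had 1.29, 1.19 and 0.836 FPKM in WT and 2.96, 9.30 and 6.56 FPKM in KO (log2 fold change 2.28, SE 0.64, adjusted limma p 0.502), without overlap. KO libraries 1 and 2, the highest, were also the highest in the platelet marker sum, whose groups overlapped, and its part in *Alox12* was not tested. *Dpep1* (log2 fold change -0.89, unadjusted limma p 0.195) and *Ggt5* (1.43, unadjusted limma p 0.382), which process leukotrienes outside the cell, overlapped between the groups. The value of *Ggt5* rests on WT library 2, where it was listed at 0, and was 0.21 without that library and 2.42 without WT library 0.

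The *Ptger4* and *Ptger3* differences did not stand alike when the data were processed in other ways. Over 16 alternatives, the log2 fold change of *Ptger4* lay between -2.30 and -1.88, its unadjusted limma p was at most 0.00124 and its adjusted limma p lay between 0.130 and 0.701. It was lower in KO in all 16 and under an adjusted p of 0.05 in 0 of them. Over the 15 alternatives in which *Ptger3* was tested, its log2 fold change lay between 0.52 and 6.54, and its unadjusted limma p was under 0.05 in 9.

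**Figure D5:**
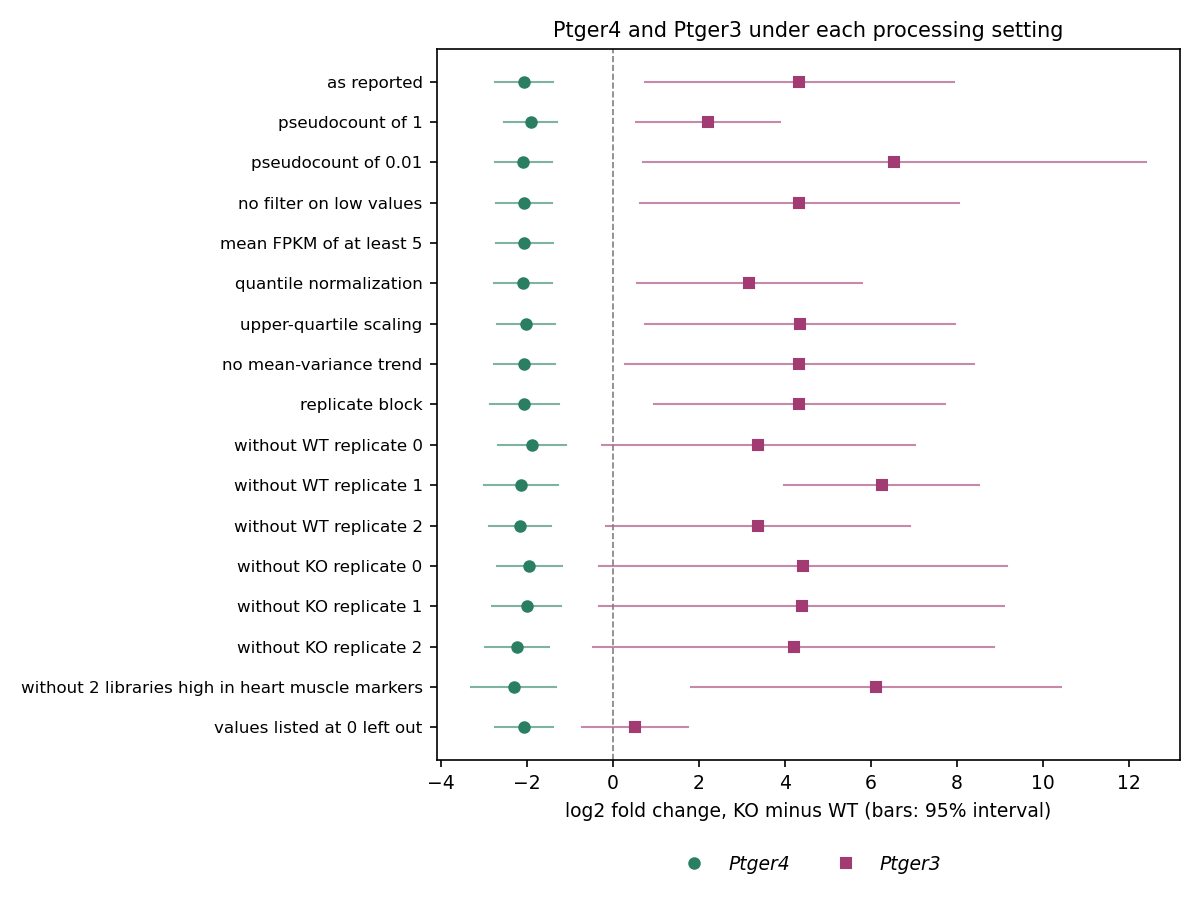
Log2 fold change, KO minus WT (x axis), of *Ptger4* (green circles) and *Ptger3* (purple squares) as reported and under each of the 16 alternatives (y axis), with 95% intervals from limma. *Ptger4* stays between -2.30 and -1.88, whereas *Ptger3* runs from 0.52, with values at 0 left out, to 6.54. *Ptger3* has no point at a mean FPKM of at least 5, where it is not tested.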

How the data were processed

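Reads had been trimmed by quality and length and mapped with TopHat2 to mm10, and the authors obtained gene values with Cufflinks, per the paper's methods and the submitters' processing notes (versions, annotation, strand and scaling are not given in the sources used here). Without strand, genes that overlap others have uncertain values, and not every overlap is reported here. The deposited FPKM values, 1 per gene and library, were used as they stood, and 0 columns lacked a library. The group size in the paper's figure legend differs from the 3 libraries per group used here. FPKM are not counts, so total depth is unknown and no count test or counting interval was used.

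FPKM were transformed to log2(FPKM + 0.1), the scale of all fold changes. The added 0.1 shrinks differences between low values above 0. Where a value is listed at 0, it sets the size of the difference, which can come out too large. Genes averaging 1 FPKM or more (12955 of 23997) were fitted with limma 3.58.1 (R 4.3.3; lmFit, eBayes with trend, two-sided, Benjamini-Hochberg over all genes tested, threshold 0.05), tested on simulated data. Single genes were compared by exact permutation over 20 assignments of the libraries (Python 3.11.15). Cuffdiff was not repeated. Positions are from GENCODE vM21 on GRCm38, promoter windows from RefSeq (GRCm38.p6).

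The 10 genes and the lists were chosen with earlier results of these data known. Named from the other lists were genes with an unadjusted p under 0.05, or the 3 smallest p, and the 5 genes most like *Ptger4*. Alternatives changed the pseudocount, filter, scaling, variance model and replicate block, and left out each library. Leaving out the 2 libraries highest in heart muscle markers, leaving out values at 0, and the ratios of *Ptger4* to markers and without *Ptger3* were chosen after seeing the data.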

Additional observations from a re-analysis of the deposited data

How the results depend on the processing

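Of the prostaglandin genes, 0 passed the adjusted threshold under any alternative. Over all genes, 1 passed (*Rn45s*, a ribosomal RNA gene), against 2 without the mean-variance trend, 3 without the 2 libraries highest in heart muscle markers, 0 with values at 0 left out, and 1 to 3 when each library was left out in turn. The number of prostaglandin genes with an unadjusted p under 0.05 was 2, against 1 at a mean FPKM of at least 5, where *Ptger3* is not tested, 1 with values at 0 left out, and 1 to 2 when each library was left out. Without WT library 2 the genes were *Ptger4* and *Hpgd* (unadjusted limma p 0.00589), and *Ptger3* was not among them (unadjusted limma p 0.0578). *Slco2a1* reversed to -0.011 on the log2 scale without the 2 libraries highest in heart muscle markers and ranged from -0.32 to 1.09 when each library was left out, reversing without WT library 0. Of the other log2 fold changes of named genes, 247 kept their direction and stayed above an adjusted p of 0.05. None had been under it in the main setting, so this tally does not show that their sizes held, as *Ptger3* shows. Of the counts, 84 stayed within 1.5 times the main count, many of them at 0 in both, and 12 moved. The cause of these changes was not tested.

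The labels do not say whether the replicate numbers pair the libraries. The deviations of same-numbered libraries correlated at 0.12, -0.076 and -0.0088, and those of other pairs at -0.12 to 0.14. With 3 libraries per group these values cannot decide it. With the numbers as a replicate block, 1 gene and 0 prostaglandin genes passed the threshold, and *Ptger4* had a log2 fold change of -2.06 with an adjusted limma p of 0.270. Total depth is unknown, so values near 0 FPKM (*Ptger2*, *Ptgir*, *Ptgs2*) do not show absence.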
